A study of Mus musculus with 2 samples.

Results

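Hopx and Chd7 are 2 of the 31053 genes measured in pancreatic islet cells of virgin and multiparous mice, and were chosen by their ratio of multipara over virgin, which stood high among well expressed genes of β cells. That ratio is therefore given as a description with no test. Wild type C57BL/6J females entered the study at 9 weeks of age. The multipara group went through 3 pregnancies in a row and gave islets 3 weeks after the last delivery, and virgin females of the same age were the controls. Each group was 1 library of single cells, dissociated with trypsin and prepared with 10x 3′ chemistry, in which every captured RNA molecule carries a unique molecular identifier (UMI). The labels do not give the number of mice behind each library, and the legend of the single-cell experiment states at least 2 per group without saying how they were pooled. No difference could therefore be set against the spread between animals. All intervals are 95% intervals for counting error only, and every comparison is between these libraries.

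Hopx encodes a small homeodomain protein that has lost the ability to bind DNA. It works through partners, among them the serum response factor SRF and the histone deacetylase HDAC2, and in the heart it links BMP signals to restraint of WNT signalling. It is used as a marker of slowly dividing stem cells in several epithelia. Chd7 encodes a chromatin remodeller of the chromodomain helicase (CHD) family, which uses ATP to move nucleosomes at enhancers, and loss of 1 copy of the human gene underlies CHARGE syndrome.

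Hopx (ENSMUSG00000059325) lies on the minus strand of chromosome 5 (GRCm38, 77086988 to 77115121), spans 28.1 kb and has 3 coding transcripts with 3 separate starts. The longest of them has 1261 bases in 3 exons. Hopxos, an antisense RNA on the other strand inside the Hopx locus, had 4 UMIs in virgin and 1 UMI in multipara β cells. Chd7 (ENSMUSG00000041235) lies on the plus strand of chromosome 4 (8690406 to 8867659), spans 177 kb and has 6 coding transcripts, the longest with 10216 bases in 38 exons. No annotated gene overlaps it. Because the chemistry reads the 3′ end, the counts do not show which start of either gene was used.

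Promoter sequences, from 250 bases before to 50 bases after a start, were taken from RefSeq on GRCm38.p6. They are shown for Hopx because SRF, which binds the CArG box, is a partner of the HOPX protein, and because the promoters differ in the motifs they hold. Both lie on the minus strand, at chr5:77115074-77115373 and chr5:77095218-77095517, and are written 5′ to 3′. Capitals mark the CArG box in the first and the E-box CACGTG in the second.
Hopx promoter 1: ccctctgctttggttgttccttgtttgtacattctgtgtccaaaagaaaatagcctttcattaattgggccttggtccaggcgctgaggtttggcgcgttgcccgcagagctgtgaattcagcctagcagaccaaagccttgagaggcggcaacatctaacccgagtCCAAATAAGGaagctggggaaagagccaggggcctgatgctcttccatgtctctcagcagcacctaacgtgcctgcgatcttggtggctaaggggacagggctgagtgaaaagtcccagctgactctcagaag
Hopx promoter 2: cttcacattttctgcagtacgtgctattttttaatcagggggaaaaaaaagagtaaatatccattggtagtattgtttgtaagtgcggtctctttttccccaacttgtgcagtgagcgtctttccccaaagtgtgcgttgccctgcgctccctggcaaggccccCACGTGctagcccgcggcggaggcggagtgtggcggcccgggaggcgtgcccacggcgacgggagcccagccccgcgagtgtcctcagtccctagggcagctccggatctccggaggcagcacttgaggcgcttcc
The CArG box lay 83 bases upstream of the first start, and 1.63% of the 32851 mouse promoters searched on both strands held one. The E-box lay 86 bases upstream of the second start, and 7.15% of promoters held that motif. None of TGANTCA (7.81% of promoters), TGACGTCA (1.79%), TTCNNNGAA (8.30%) and TATAAA (13.6%) was found in either Hopx window. A match describes letters and not a bound site.

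Cells were sorted into classes by the share of their UMIs from insulin, glucagon, somatostatin or pancreatic polypeptide, or by UMIs of marker genes for other cells. This gave 1716 virgin and 1468 multipara β cells, with median depths of 30306.5 and 33026.5 UMIs. The classes compared, each with at least 30 cells in both libraries, were also α (1015 and 628 cells), δ (248 and 236), PP (68 and 74), endothelial (248 and 199), pericyte (61 and 49), macrophage (69 and 84) and T cells (129 and 31). Of 8 β cell genes that had not been used to choose cells, 7 were highest in the β class of both libraries, while the zinc transporter gene Slc30a8 was higher in α cells. The PP class was the least well marked in the virgin library, with 1 of 3 such genes highest, and had 2 of 3 in the multipara library. In the α class 4 of 5 such genes were highest in virgin and 3 of 5 in multipara cells. Of all UMIs of kept cells, β cells gave 60.6% among virgin and 66.0% among multipara cells. They gave a larger share of the UMIs of Hopx (76.9% and 85.4%) and of Chd7 (81.1% and 87.3%).

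Hopx and Chd7 were both higher in multipara than in virgin β cells. Hopx had 2865 UMIs in virgin and 4349 in multipara β cells, or 56.9 CPM (54.8 to 59.0) and 95.4 CPM (92.6 to 98.2), where CPM is the UMIs of a gene divided by all UMIs of the class and scaled to 1000000. This is a log2 ratio of multipara over virgin of 0.75 (0.68 to 0.81), or 1.68-fold. Chd7 had 4252 and 6280 UMIs, or 84.4 CPM (81.9 to 87.0) and 138 CPM (134 to 141), a log2 ratio of 0.71 (0.65 to 0.76) or 1.63-fold. Both differences were larger than the counting error, whereas the spread between animals was not measured.

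Of 11784 genes with at least 50 UMIs in β cells, 1.99% were more than 1.5-fold higher in the multipara library and 5.19% more than 1.5-fold lower. Both members lay past 1.5-fold, as the choice of the genes set. Among the 1234 genes whose mean level reached 50 CPM, Hopx had the fifth and Chd7 the seventh highest ratio. Just above Hopx lay the complement gene C1qa with a log2 ratio of 0.79, between the members lay the peptidyl-prolyl isomerase gene Fkbp11 with 0.72, and just below Chd7 lay the activity-induced transcription factor gene Npas4 with 0.62. The median gene had a log2 ratio of -0.09, so both members stood slightly further from the typical gene than from 0.

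**Figure D1:**
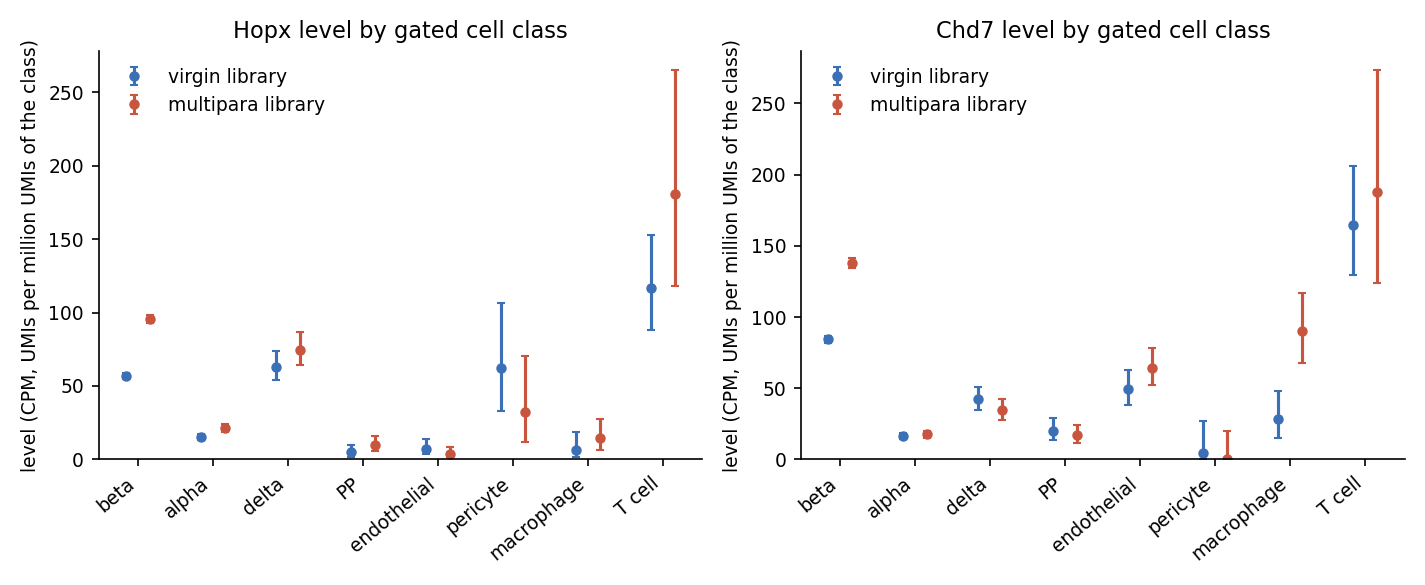
Level of Hopx (left) and Chd7 (right) in CPM for each gated class, with the virgin library in blue and the multipara library in red. Points are summed UMIs of the class on this scale and bars are exact Poisson 95% intervals, which cover counting error only. T cells had the highest value for both genes, and β cells were the endocrine class with the largest gap between libraries.

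Across cell types Hopx was highest in T cells, at 117 CPM (87.9 to 153) in those of virgin mice and 181 CPM (118 to 265) in those of multipara mice. These values rest on 54 and 26 UMIs. In the virgin library δ cells (63.1 CPM, 53.9 to 73.5), pericytes (62.2 CPM, 33.1 to 106) and β cells followed, and these 3 classes could not be told apart by their intervals. In the multipara library β cells stood second and above δ cells, which had 74.8 CPM (64.2 to 86.6). Pericytes followed with 32.4 CPM (11.9 to 70.5) from 6 UMIs. The Hopx level of δ cells was thus 111% (94.7 to 129) of the β level among virgin and 78.4% (67.3 to 90.8) among multipara cells.

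Lower Hopx levels were seen in α cells, with 15.4 CPM (13.5 to 17.4) for virgin cells and 21.4 CPM (18.7 to 24.3) for multipara cells. Endothelial cells had 7.39 and 3.97 CPM, macrophages 6.50 and 14.5 CPM, and PP cells 4.84 and 10.1 CPM, each from at most 18 UMIs. In the virgin library each class from α cells down to PP cells overlapped its neighbour in the order, and the same held in the multipara library from δ cells downward.

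Chd7 was also highest in T cells, at 165 CPM (130 to 206) in those of virgin mice and 188 CPM (124 to 273) in those of multipara mice. β cells came second, separated from T cells in the virgin library but not in the multipara library. The virgin order went on with endothelial cells (49.5 CPM, 38.4 to 62.9), δ cells (42.1 CPM, 34.6 to 50.7), macrophages (28.2 CPM, 15 to 48.2), PP cells (20.1 CPM, 13.4 to 28.8) and α cells (16.3 CPM, 14.4 to 18.4), each overlapping the next. In the multipara library macrophages (89.9 CPM, 67.9 to 117) and endothelial cells (64.2 CPM, 52.1 to 78.3) stood above δ cells (34.5 CPM, 27.4 to 42.8), and δ cells above α cells (17.5 CPM, 15.1 to 20.2) and PP cells (16.8 CPM, 11.3 to 24.0). Pericytes had 1 Chd7 UMI in the virgin library and 0 in the other, and 0 UMIs allow a level of up to 16.2 CPM there (3 counts).

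Free RNA from broken β cells can give any class some UMIs of a β cell gene. G6pc2, a β cell enzyme gene that was not used to choose cells, reached 2.46% of its β level in virgin α cells and 2.96% in multipara α cells, and 1.86% and 2.82% in δ cells. Ucn3, a peptide hormone gene of mature β cells, reached 1.14% and 1.80% in α cells. Hopx in α cells stood at 27.0% (23.8 to 30.6) and 22.4% (19.7 to 25.5) of its β level, and Chd7 at 19.4% (17.1 to 21.8) and 12.7% (11.0 to 14.7). The α and δ levels of both members were thus above the share seen for these β cell genes. In virgin endothelial cells Hopx stood at 13.0% (6.23 to 23.9) of its β level from 10 UMIs, above the 2.78% (1.62 to 4.45) of G6pc2. In multipara endothelial cells, in contrast, Hopx stood at 4.17% (1.53 to 9.07) of its β level from 6 UMIs, which overlapped the 3.33% (2.06 to 5.09) of G6pc2.

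T cells were also divided by their Cd4 and Cd8 UMIs. In the virgin library 27 T cells had a Cd4 UMI and none of Cd8, and their Hopx level was 249 CPM (156 to 377) from 22 UMIs. The 37 T cells with a Cd8 UMI had 76.0 CPM (39.3 to 133) from 12 UMIs, below the Cd4 cells. The Chd7 levels of these cells, 102 CPM (46.6 to 194) and 165 CPM (108 to 241) from 9 and 26 UMIs, overlapped. The largest group, 65 T cells with neither UMI, had 92.9 CPM (56.7 to 143) of Hopx and 190 CPM (137 to 258) of Chd7. Whether the genes differ in this division was not tested. The multipara library held 3 and 6 such cells, too few to describe.

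**Figure D2:**
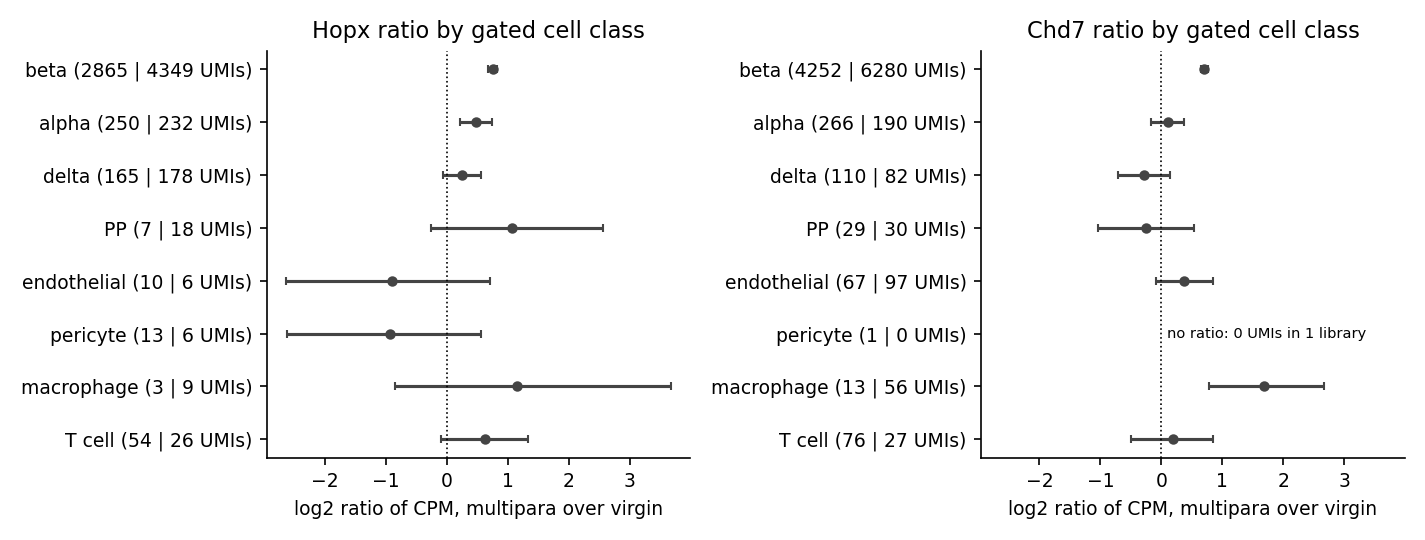
Log2 ratio of multipara over virgin CPM for Hopx (left) and Chd7 (right) in each gated class, with exact 95% counting intervals as bars and the UMIs of the virgin and multipara library beside each class. For Hopx the intervals of β and α cells lie above 0. For Chd7 those of β cells and macrophages lie above 0, and no ratio was formed for pericytes.

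The libraries differed for Hopx in α cells as well. The α log2 ratio was 0.48 (0.21 to 0.74) from 250 and 232 UMIs, and its interval overlapped that of β cells. For comparison, 1.26% of genes tested in α cells were more than 1.5-fold higher in the multipara library, a limit that Hopx did not pass there. The insulin gene Ins2 was also higher in multipara α cells, at 0.92% of its β level in virgin and 1.52% in multipara cells. The part of free β cell RNA in the α ratio of Hopx was not tested. In δ cells the ratio was 0.24 (-0.07 to 0.56), an interval that held 0 and lay below that of β cells. T cells had 0.63 (-0.11 to 1.33), PP cells 1.06 (-0.27 to 2.56), macrophages 1.15 (-0.85 to 3.67), endothelial cells -0.90 (-2.64 to 0.71) and pericytes -0.94 (-2.62 to 0.55). At these depths a Hopx difference was not detectable in any of these last classes, of which PP cells, T cells and macrophages had positive ratios.

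For Chd7 the other endocrine classes showed no difference beyond counting error. The log2 ratio was 0.10 (-0.18 to 0.37) in α cells, -0.29 (-0.72 to 0.14) in δ cells and -0.25 (-1.04 to 0.53) in PP cells, and all of these intervals lay below the interval of β cells. As the β ratio had chosen the gene, this gap is a description and was not tested. Endothelial cells had 0.37 (-0.09 to 0.85) and T cells 0.19 (-0.50 to 0.84), intervals that held both 0 and the β value.

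In macrophages the Chd7 interval lay above 0. The gene had 13 UMIs in 12 of 69 virgin macrophages and 56 UMIs in 36 of 84 multipara macrophages, a log2 ratio of 1.68 (0.79 to 2.67). Of genes tested in macrophages, 5.44% were more than 1.5-fold higher in the multipara library. Restricted to macrophages with UMIs of the complement C1q genes, the Chd7 levels were 31.6 CPM (15.8 to 56.5) in 59 virgin cells and 92.2 CPM (69.6 to 120) in 82 multipara cells. The intervals of the libraries did not overlap in this subset either. Over all macrophages the Chd7 level was 33.4% of the β level in virgin and 65.3% in multipara cells, beside 2.39% and 3.46% for G6pc2. Thinned to 2000 UMIs, 6.67% of 60 virgin and 15.5% of 84 multipara macrophages had a Chd7 UMI, and the intervals of these shares (1.85 to 16.2 and 8.51 to 25) overlapped. Chd7 also differed in B cells, with 43.2 CPM (32.4 to 56.3) in 184 virgin cells and 112 CPM (66.6 to 177) in 26 multipara cells, a number below the minimum of 30 set for a comparison.

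More multipara than virgin β cells held a UMI of each gene once all cells had the same depth. Without any adjustment, 70.0% of virgin and 81.5% of multipara β cells had a Hopx UMI, and 74.2% and 80.2% a Chd7 UMI. Each cell was then thinned at random to 7000 UMIs, and the 142 virgin and 143 multipara β cells below that depth were dropped. Hopx was seen in 32.8% (30.5 to 35.2) of 1574 virgin and 44.7% (42.0 to 47.4) of 1325 multipara cells. Chd7 was seen in 37.6% (35.2 to 40.1) and 50.2% (47.5 to 52.9). The differences were 11.8 percentage points (8.23 to 15.4) for Hopx and 12.6 points (8.91 to 16.2) for Chd7.

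A single random thinning adds noise of its own, so the mean over all possible draws was also computed. It gave 31.4% and 45.7% of β cells for Hopx, a difference of 14.3 points, and 38.6% and 49.2% for Chd7, a difference of 10.6 points. The mean UMIs per β cell at this depth were 0.392 and 0.664 for Hopx, a log2 ratio of 0.76, and 0.575 and 0.922 for Chd7, a log2 ratio of 0.68. Equal depth therefore left the β cell ratios close to those of the sums.

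The α cells again gave a reference at the same depth. Thinned to 7000 UMIs, 9.59% of virgin and 15% of multipara α cells had a Hopx UMI, and 10.7% and 11.0% a Chd7 UMI. In δ cells the shares were 34.4% and 38.4% for Hopx and 24.1% and 21.2% for Chd7. The T cells could be compared only at 2000 UMIs, where Hopx was seen in 17.6% (11.3 to 25.7) of 119 virgin and 35.5% (19.2 to 54.6) of 31 multipara T cells, against 10.0% and 16.6% of β cells.

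**Figure D3:**
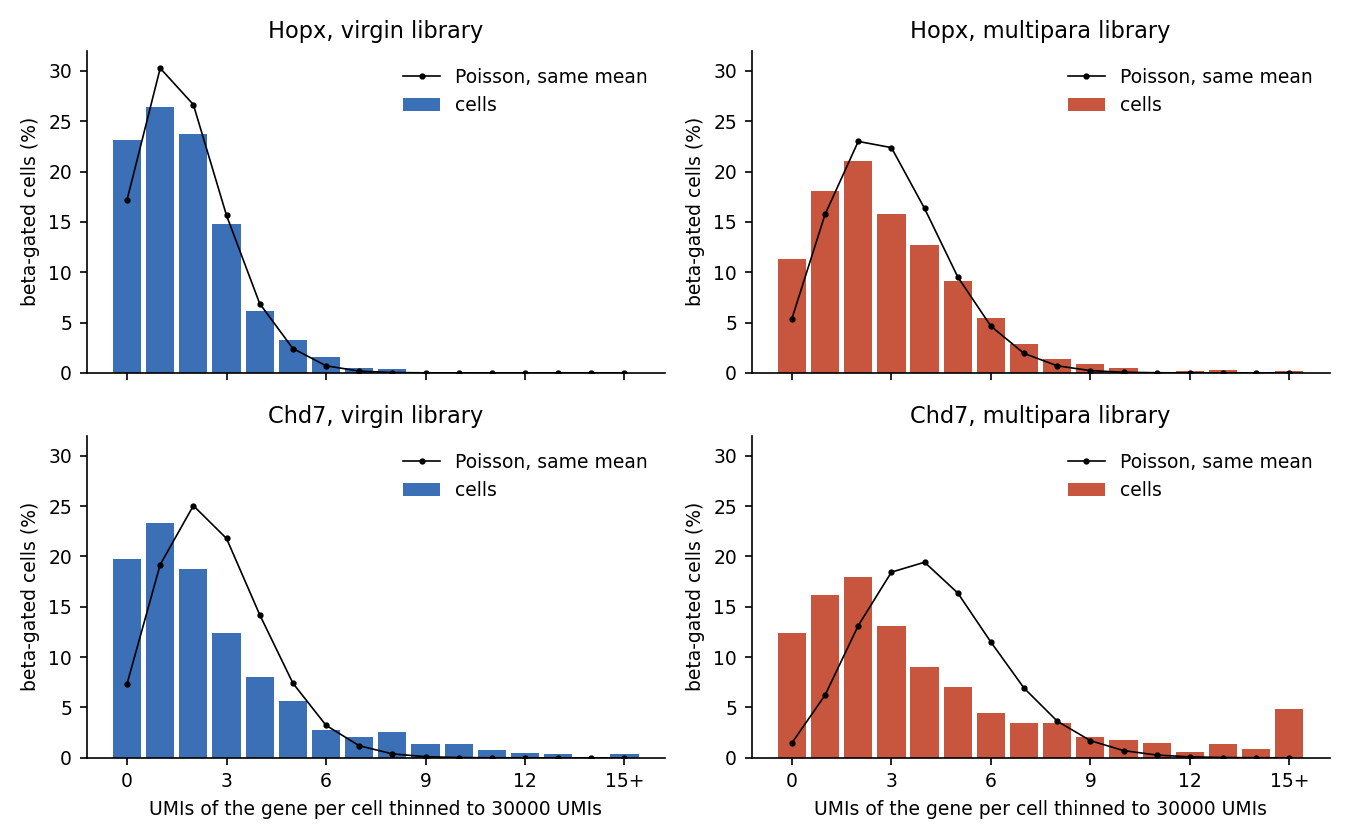
Percent of β cells with each number of Hopx (top) or Chd7 (bottom) UMIs after thinning to 30000 UMIs, for the virgin library (blue, 874 cells) and the multipara library (red, 898 cells), with a Poisson law of the same mean as black points. The last bar holds cells with 15 or more UMIs. Chd7 departs from the Poisson law at both ends, more than Hopx does.

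In the deeper β cells, thinned to 30000 UMIs, the genes were spread over cells in different ways. Hopx had a mean of 1.76 UMIs in 874 virgin cells and 2.92 in 898 multipara cells, and its variance over mean was 1.36 and 1.79, where a Poisson law gives 1. Cells with 0 Hopx UMIs made up 23.1% and 11.4%, against 17.2% and 5.39% under that law. Hopx was therefore found at low numbers in most β cells of both libraries.

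Chd7 was less even. Its mean was 2.61 and 4.21 UMIs, its variance over mean was 2.83 and 4.95, and 19.8% and 12.4% of cells had 0 UMIs against 7.35% and 1.48% under a Poisson law. Cells with at least 10 Chd7 UMIs numbered 30 (3.43%) among virgin and 98 (10.9%) among multipara β cells. The 10% of cells with most Chd7 UMIs held 34.5% and 36.2% of them, compared with 28.3% and 26.2% for Hopx. Both the share of β cells with Chd7 and the number of UMIs in the highest cells were larger in the multipara library. The intervals of Chd7 levels and ratios take UMIs as independent and leave out this spread over cells. They are therefore too narrow for differences between sets of cells.

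Hopx and Chd7 were not found together in the same β cells much more often than their own shares gave. At 7000 UMIs both were seen in 12.5% of virgin β cells, with 12.4% given by the product of the shares. In multipara cells the values were 23.5% and 22.4%, with odds ratios of 1.02 and 1.20. At 30000 UMIs the odds ratios were 1.22 and 1.75. The correlation of the genes over cells was at most 0.14, which in sparse counts of cells sharing a library is no finding.

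Levels beside other genes were taken from the single draw thinned to 7000 UMIs, so they differ from the class sums. This draw gave a mean of 0.419 Hopx UMIs in virgin and 0.626 in multipara β cells, beside 0.392 and 0.664 over all draws. Among the genes compared, Hopx levels in CPM differed with Fmo1 and Chd7 levels in CPM with Npas4 in both libraries. By the share of cells with a UMI, the intervals of these pairs were apart in the virgin library only. In multipara cells Hopx was seen in 49.5% (44.9 to 54.1) with and 42.1% (38.7 to 45.4) without Fmo1. Chd7 was seen there in 54.7% (50.4 to 59.0) with and 47.2% (43.7 to 50.7) without Npas4. Within each library, β cells with a UMI of Fmo1, a flavin monooxygenase gene, had more Hopx, at 79.1 CPM (64.9 to 95.5) against 57.1 CPM (52.4 to 62.1) in virgin and 104 CPM (93.1 to 115) against 81.6 CPM (74.5 to 89.2) in multipara cells. For Chd7 this comparison gave overlapping intervals. Cells with a UMI of Npas4 had more Chd7, at 96.4 CPM (85.8 to 108) against 78.0 CPM (72.0 to 84.4) in virgin and 156 CPM (144 to 170) against 120 CPM (111 to 130) in multipara cells, whereas for Hopx the intervals overlapped. Nupr1, a stress-induced regulator with a large ratio in the same contrast, went with Chd7 in virgin cells (102 against 76.8 CPM) and not beyond counting error in multipara cells (139 against 129 CPM). The intervals of the virgin shares of cells with Chd7 just overlapped, at 43.4% (38.4 to 48.4) with and 35.7% (32.9 to 38.5) without Nupr1. Hopx did not differ beyond counting error between cells with and without Nupr1 in either library. Matn2, Pde5a and Igfbp7 were compared in the same way, and their intervals overlapped for both members in both libraries.

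All 2260 well detected genes were ranked by their correlation with Chd7 over β cells of each library in the same draw. Activity-induced and immediate early genes led the order. The highest were the nuclear receptor gene Nr4a1, with r of 0.13 in virgin and 0.19 in multipara cells, and Fosb, with 0.11 and 0.15, followed by Junb, with 0.10 and 0.15, the lamin gene Lmna and Ier2. The lowest were the granule protein gene Chga, with -0.08 and -0.14, and Iapp, with -0.07 and -0.13, followed by Gpx3, Scg5 and Resp18. For Hopx no gene exceeded 0.1 in both libraries. Its highest were Cebpb, with 0.07 and 0.09, Junb, Ndufa12, Sec61g and Tceal9, and its lowest mt-Co3, Gipr, Smim1, mt-Nd2 and Msi2. These values are small, and cells of a library share its depth and handling. Over all 2260 genes, the values of 1 library correlated with those of the other at 0.08 for Hopx and 0.27 for Chd7. The Hopx order thus hardly repeated between libraries.

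**Figure D4:**
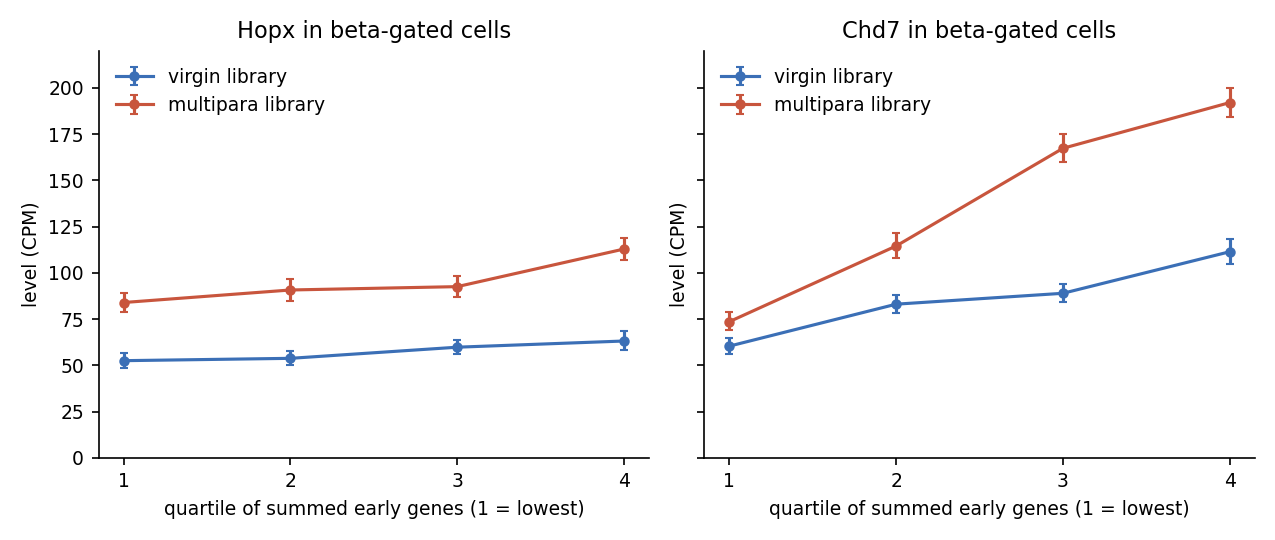
Level of Hopx (left) and Chd7 (right) in CPM in β cells of the virgin (blue) and multipara (red) library, by quartile of the summed level of 7 immediate early genes, with limits set over both libraries and exact Poisson 95% intervals as bars. Chd7 goes from 60.4 to 111 CPM in virgin and from 73.6 to 192 CPM in multipara cells, a wider range than Hopx. The list holds genes that had ranked highest beside Chd7 in these cells.

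As early genes ranked high beside Chd7, β cells of both libraries were divided by the summed level of Fos, Fosb, Egr1, Jun, Junb, Ier2 and Atf3, a list chosen after the data had been seen. Fosb, Junb and Ier2 were among the 5 genes ranked highest beside Chd7 in these cells. A rise of Chd7 along this sum was therefore set by the choice of the list and adds nothing to that ranking. The median β cell had 4687 CPM of these genes if virgin and 5129 CPM if multipara. Chd7 went from 60.4 CPM (56.1 to 65.0) in the lowest quartile to 111 CPM (105 to 119) in the highest in virgin cells, and from 73.6 CPM (68.8 to 78.6) to 192 CPM (184 to 200) in multipara cells. Its log2 ratio of multipara over virgin was 0.29 (0.14 to 0.43), 0.46 (0.35 to 0.58), 0.91 (0.81 to 1.02) and 0.79 (0.68 to 0.89) from the lowest to the highest quartile. The Chd7 difference thus remained above counting error in every quartile and was smallest where early genes were low. These intervals leave out the spread of Chd7 over cells, so whether the smallest difference exceeds that spread was not tested. The division did not level the libraries in its end quartiles. The median early gene level was 2428 CPM in virgin and 1991 CPM in multipara cells of the lowest quartile. In the highest quartile it was 7823 and 8148 CPM. The part of early genes in the Chd7 difference was not tested.

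Hopx moved less along the same division, which had been chosen from the ranking beside Chd7. Its level went from 52.5 CPM (48.5 to 56.8) to 63.1 CPM (58.0 to 68.6) in virgin and from 83.9 CPM (78.9 to 89.3) to 113 CPM (107 to 119) in multipara cells, with log2 ratios of 0.68, 0.75, 0.63 and 0.84. In quartiles of depth, mitochondrial share or insulin share the log2 ratios lay between 0.63 and 0.85 for Hopx and between 0.50 and 0.88 for Chd7. All of these were above 0 beyond counting error.

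Markers of the classes richest in the members were low in β cells of both libraries. The 5 genes used to choose T cells summed to 0.179 CPM in virgin and 0.153 CPM in multipara β cells, and 1 and 2 of them were at 0. The 6 macrophage genes summed to 4.37 and 2.15 CPM. Somatostatin stood at 108 and 68.7 CPM and glucagon at 935 and 591 CPM, both limited by the way β cells were chosen. Higher sums in multipara β cells were seen for the markers of endothelial cells (4.13 and 4.80 CPM), pericytes (0.357 and 0.504 CPM), acinar cells (0.198 and 0.987 CPM) and ductal cells (311 and 352 CPM). Their part in the ratios of Hopx and Chd7 was not tested.

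**Figure D5:**
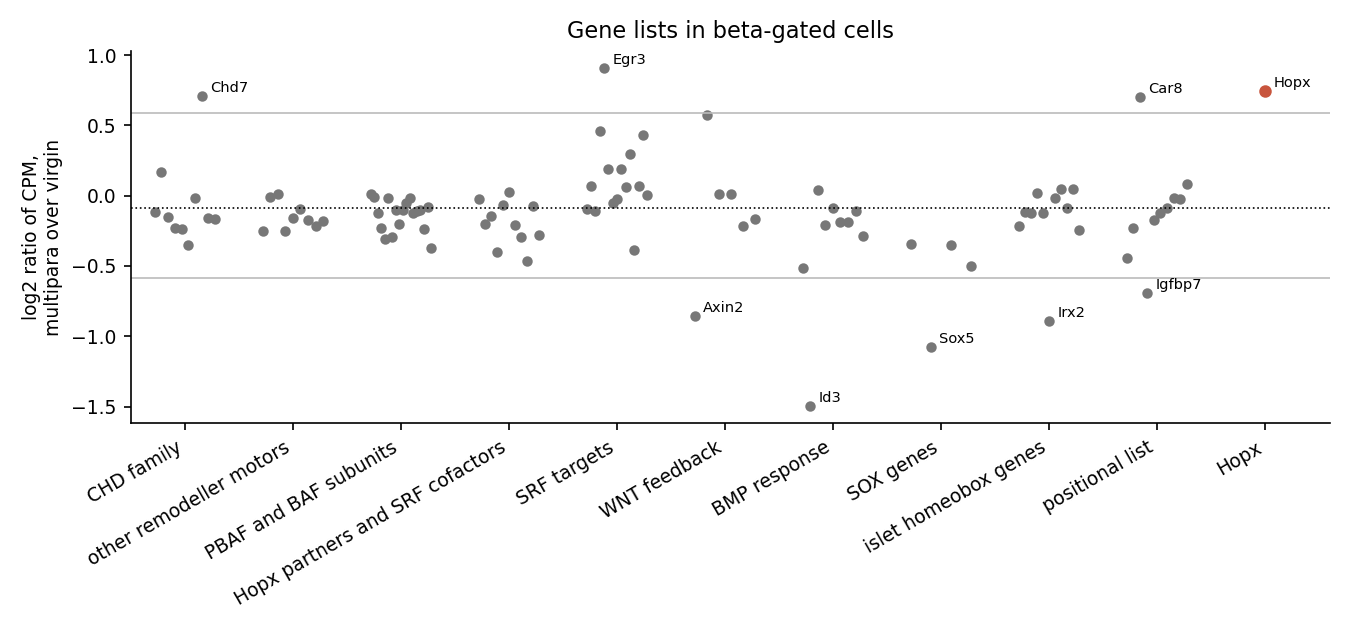
Log2 ratio of multipara over virgin CPM in β cells for the genes of each list with at least 50 UMIs, and for Hopx at the right (red). The dotted line is the median of all genes tested, the grey lines mark 1.5-fold, and genes past 1.5-fold are named. Chd7, which this ratio had chosen, is the 1 gene of the CHD family past the line.

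All 10 CHD genes could be tested in β cells. Besides Chd7, which this ratio had chosen, 0 passed 1.5-fold in either direction, which is near the background of 1.99% of all genes higher and 5.19% lower. Their median log2 ratio was -0.16 beside -0.09 for all genes, and -0.06 with TMM factors, which move every ratio up by 0.10. Chd8, a binding partner of CHD7, had 19.4 and 17.4 CPM and a log2 ratio of -0.16 (-0.29 to -0.02). Chd4, the motor of the NuRD repressor complex, had 58.2 and 49.4 CPM and -0.24 (-0.32 to -0.16). Chd6 and Chd9, close relatives of Chd7, had -0.02 (-0.14 to 0.10) and -0.17 (-0.27 to -0.06). Apart from Chd7 the ratios ran from -0.35 for the neural gene Chd5 to 0.17 for Chd1l.

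Of 9 further remodeller motors tested, 0 passed 1.5-fold, with a median of -0.17, from -0.25 for Smarca5 of the ISWI complexes to 0.01 for Smarca4, the BRG1 motor. Of 18 subunits of the PBAF and BAF complexes, with which CHD7 can act, 0 passed 1.5-fold, with a median of -0.10, from -0.37 for Dpf3 to 0.01 for Smarca4. Beside 1.99% higher and 5.19% lower over all genes, counts of 0 in lists of this length are near the background and are no result about remodellers.

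For Hopx, 11 partners and SRF cofactors could be tested. Of these 0 passed 1.5-fold, which is near the background of 1.99% higher and 5.19% lower, and their median was -0.20 beside -0.09 for all genes. Srf had 31.8 and 31.3 CPM and a log2 ratio of -0.02 (-0.13 to 0.08), and Hdac2 26.2 and 22.8 CPM and -0.20 (-0.32 to -0.09). The list ran from -0.47 for Elk1 to 0.03 for Mkl2, which encode SRF cofactors. Among 15 SRF targets 1 was more than 1.5-fold higher, the early gene Egr3 with 197 and 335 UMIs and 0.91 (0.65 to 1.17), and the lowest was Tpm1, a tropomyosin gene, with -0.39 (-0.54 to -0.23). The 1 higher call is 6.67% of this list, beside 1.99% of all genes, too few for a result about SRF targets. The median of these targets was 0.07 beside -0.09 for all genes. Of the targets 66.7% lay above 0, beside 31.9% of all genes, and this difference was not tested.

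The lists for pathways tied to HOPX in other tissues, for SOX genes and for islet homeobox genes each held 1 gene more than 1.5-fold lower in the multipara library. Over all genes lower calls also outnumbered higher ones, at 5.19% against 1.99%, so nothing particular to these lists is read from the counts. With TMM factors Tcf7l1 passed as well, on the higher side. Among 9 BMP response genes Id3, an inhibitor of basic helix-loop-helix factors, had 128 UMIs in virgin and 41 in multipara cells, or -1.50 (-2.04 to -0.98), the highest was Id4 with 0.04, and the median was -0.19. Among 6 genes of WNT feedback Axin2, which limits β-catenin, had 96 and 48 UMIs and -0.86 (-1.39 to -0.34), the highest was Tcf7l1 with 0.58 (0.26 to 0.90), and the median was -0.08. Among 4 SOX genes the lowest was Sox5 with 42 and 18 UMIs and -1.08 (-1.96 to -0.25), the highest Sox4 with -0.34, and the median was -0.42. Among 11 islet homeobox genes 1 passed 1.5-fold, Irx2, an α cell gene, with 80 and 39 UMIs and -0.89 (-1.48 to -0.32), and glucagon itself was lower, as given above. The highest of these was Meis1 with 0.05.

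In the neighbourhood of Chd7, 2 genes started within 500 kb. Car8, a carbonic anhydrase-related gene 451.4 kb upstream, had 610 UMIs in virgin and 896 in multipara β cells, or 0.70 (0.55 to 0.85), and Rab2a, a small GTPase gene 154.8 kb upstream, had -0.02 (-0.07 to 0.02). Of 21 genes around Hopx, 8 could be tested. Igfbp7, a secreted binding protein gene 292.9 kb upstream, was lower in multipara β cells, with 6048 and 3383 UMIs and -0.69 (-0.76 to -0.63). The other tested neighbours of Hopx ran from -0.44 for 2310040G07Rik, with 48 and 32 UMIs, to 0.08 for Srp72.

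Over the 16 points given by 8 classes and both libraries, the levels of Hopx and Chd7 had a correlation of 0.25, and among 8745 genes Chd7 took place 1739 by likeness to Hopx and Hopx place 1208 by likeness to Chd7. The genes with the pattern most like Hopx were Hist1h4i (r of 0.89), Ndufv3 (0.85), Smim20 (0.82), Coq8a (0.80) and mt-Cytb (0.80). Those most like Chd7 were Nans (0.88), Gtf2f2 (0.83), Ap3s1 (0.80), Rnf123 (0.79) and Mthfd2 (0.79). Points of the same class or library share cells or depth, so these values only describe the pattern. Some of them rest on few UMIs in multipara T cells, where 3 counts make 20.9 CPM. Hist1h4i had 34.8, Coq8a 48.7, Gtf2f2 41.7 and Rnf123 34.8 CPM there. The coefficient also follows the shape and not the size of the differences. Over β, α, δ and T cells mt-Cytb ran only from 4091 CPM (multipara α) to 5034 CPM (virgin T cells). In virgin and multipara β cells Hist1h4i had 24.3 and 22.2 CPM, and Ndufv3 had 121 and 144 CPM.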

How the data were processed

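Islet cells were profiled with 10x Chromium 3′ chemistry. The deposited matrices hold raw UMI counts, made by the authors. The submitters' processing notes name Cell Ranger 3.1.0, Seurat 3.0 and GRCm38/mm10. Totals were 94853806 UMIs over 5463 virgin barcodes and 82503776 UMIs over 5075 multipara barcodes, and 7 barcodes were shared. Cells with more than 200 and fewer than 6000 genes, under 60000 UMIs and under 10% mitochondrial UMIs were kept. Scrublet (scanpy 1.11.5) removed 61 (1.39%) and 44 (1.30%) doublets, leaving 4330 and 3330 cells. Doublets can remain.

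Endocrine cells had at least 20% (insulin), 10% (glucagon), 5% (somatostatin) or 10% (pancreatic polypeptide) of UMIs from their hormone and less than 5%, 1%, 1% or 5% from the others. Other cells needed at least 3 marker UMIs, 3 times those of the next class, and low hormones. These limits were set after the distributions had been seen, and class names are rebuilt. CPM intervals are exact Poisson, shares exact Clopper-Pearson and log2 ratios exact conditional binomial. With 1 library per group no test was run. Intervals of differences between shares combine the distances from each share to its Clopper-Pearson limits as the root of summed squares. Genes were ranked in β cells from at least 50 UMIs in both libraries together. TMM factors came from edgeR 4.0.16.

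The genes, lists and markers were chosen with earlier results of these data known. The named genes were Hopx and Chd7, the highest and lowest ratio of each list, Chd4, Chd6, Chd8, Chd9, Srf and Hdac2, the 5 most like genes across classes, the 5 highest and lowest correlations within β cells, and neighbours within 500 kb, and genes just above and below the members were named after their values were seen. Locations came from GENCODE M21 and the scripts were tested on simulated data.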

Additional observations from a re-analysis of the deposited data

Results flagged for a closer look

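The Chd7 log2 ratio of multipara over virgin was -0.29 in δ cells and -0.25 in PP cells, against 0.71 in β cells, and was marked because the signs were opposite between cell types. Both intervals held 0, and the difference between the cell types was not tested.

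Barcodes that passed the β hormone limits but had been left out by the cell filter or as doublets (188 virgin and 309 multipara) also carried both genes, outside the data used above. Hopx stood at 53.0 CPM in virgin and 96.3 CPM in multipara barcodes, a log2 ratio of 0.86 (0.67 to 1.06), and Chd7 at 111 and 163 CPM, a log2 ratio of 0.56 (0.42 to 0.70). These barcodes had a median mitochondrial share of 11.1% and 14.9% and median depths of 25146 and 6877 UMIs.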

How the results depend on the processing

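Each group was 1 library, so no replicate could be left out. No paired analysis was possible because each group is a single library and no result comes from a test. Over 14 alternatives the β cell log2 ratio of multipara over virgin stayed above 0, between 0.58 and 0.84 for Hopx and between 0.33 and 0.86 for Chd7. Of 99 recomputed values, 79 moved by less than their counting interval or 1.5 times. Many of these were ratios outside β cells with wide intervals, where staying inside says little about stability. The alternatives that took the β cell ratios outside their intervals are among the values below. The Chd7 ratio in α cells, 0.10 with an interval that held 0, changed sign to -0.0044 with cells weighted equally. With TMM factors and with median-of-ratios factors Hopx had 0.84 and 0.84 and Chd7 0.80 and 0.80, since the scale of all genes moved by 0.10. Hopx had 0.58 in 1 draw thinned to 7000 UMIs and 0.76 as the mean over all draws, and without cells holding a Nupr1 UMI Hopx had 0.65 and Chd7 0.65. With cells weighted equally Chd7 had 0.86. In cells below the median of early genes, an alternative added after the data had been seen, Chd7 had 0.33. At 2000 UMIs the share of β cells differed by 6.60 points for Hopx and 7.65 for Chd7, and at 30000 UMIs by 7.43 for Chd7. A different random draw at 7000 UMIs gave 14.8 and 9.11 points. With at least 10 instead of 50 UMIs, genes past 1.5-fold numbered 1 instead of 0 among remodeller motors, 2 instead of 0 among PBAF and BAF subunits, 2 instead of 1 each among SRF targets, BMP response and SOX genes, 5 instead of 1 among islet homeobox genes and 2048 instead of 846 over all genes. With TMM factors WNT feedback had 2 instead of 1. Counts below about 20 UMIs, as for Hopx in PP, endothelial, pericyte and macrophage cells, give ratios with wide intervals.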
